A study of Mus musculus with 4 samples.

Results

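Among the 9244 genes with library values, 252 (2.73%) carry a name made of Zfp and a number, and these numbered zinc finger protein genes are described here. The rule uses the name only, but the class was proposed with earlier results of these data known. Zfp36, whose protein binds RNA through fingers of another kind, was left out although its name has the same form. The study set 2 libraries of Sin3B KO cells against 2 libraries of WT cells, all from C57BL/6 mice of 8 to 12 weeks. The cells were haematopoietic stem cells (HSC), the marrow cells that sustain blood formation, sorted as LSK cells without CD34 and Flk2, and polyA RNA was sequenced after SMARTER library construction for low inputs. How the knockout was made, in which cells it acts and whether the libraries of a genotype came from separate animals are not stated in the labels. A p-value here is therefore set against the spread between 2 libraries a genotype, taken partly from the gene and partly from all genes. That spread could be technical.

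Most proteins of this class carry C2H2 zinc fingers, short folds in which a pair of cysteines and a pair of histidines hold a zinc ion, and several fingers in a row read a stretch of DNA. Many members also begin with a KRAB box, a domain found in tetrapods and their close relatives. The KRAB box binds Trim28 (KAP1), which brings histone deacetylase, H3K9 methyltransferase and HP1 proteins to the bound site, so these proteins silence retroelements and imprinted genes. KRAB zinc finger genes multiply by tandem duplication and lie in clusters. Sin3B, whose gene is the knocked-out one, is a scaffold of other histone deacetylase complexes, and Sin3 proteins are recruited by some zinc finger repressors.

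The fingers of 3 members are shown to make the class visible, as coding bases of the GENCODE gene models on GRCm38, from the first cysteine codon of a finger to the end of the conserved linker that joins it to the next. Zfp319 is the member with the smallest p-value below, Zfp266 the most abundant member with a KRAB box, and Zfp445 an imprint silencer. Capitals mark the codons of the 2 cysteines and 2 histidines. The stretches are coding bases 607 to 684 of Zfp319, 1201 to 1278 of Zfp266 and 1906 to 1983 of Zfp445, each of 78 bases.
Zfp319: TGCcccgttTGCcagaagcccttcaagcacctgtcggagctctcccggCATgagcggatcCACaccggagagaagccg
Zfp266: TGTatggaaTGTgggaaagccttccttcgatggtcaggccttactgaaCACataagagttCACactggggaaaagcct
Zfp445: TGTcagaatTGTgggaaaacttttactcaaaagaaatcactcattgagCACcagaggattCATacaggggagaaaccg
The codons between the 2 cysteines and those between the inner cysteine and histidine differ from gene to gene. The linker bases at the end are close to each other. Such a linked finger was found in 180 of the 248 members with a coding gene model. At least 3 fingers were found in 229 of them, up to 36 in Zfp142, and none in Zfp330, Zfp839 and Zfp935.

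A profile of the KRAB box matched 147 members, did not match 101, and 4 members without a matching coding model (Zfp828, Zfp862, Zfp259 and Zfp783) were not classed. At a looser threshold of the profile (an E-value of 0.01 in place of 1e-05) 152 members matched. Some of the 101, called members without KRAB below, may therefore carry a KRAB box that the profile missed. The KRAB members had a median of 12 fingers and the members without a KRAB match a median of 7. Chromosome 7 held 65 members (42 with KRAB), chromosome 17 held 33 (28 with KRAB) and chromosome 13 held 21 (19 with KRAB). In the order of coding genes, 107 members sat directly beside another member, 85 of them with KRAB, and 16 stretches held 3 or more in a row. The annotation has 364 coding genes with such a name, of which 247 are listed here. No gene in the table has a mean under 120.2, so weaker members were not analysed here. In the gene models, 31 of 248 members share over 10% of their 50-base words with another gene, and 31 have over 10% of their exon bases in exons of another gene; reads of these members may be split or shared. Members whose values are printed below are marked where they exceed either share.

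The values are normalised read counts, the reads of a gene divided by 1 factor per library. With the smallest step of each library taken as 1 read, the listed genes held between 12637960 and 13700630 reads in the Sin3B KO libraries and between 9950979 and 11754067 in the WT libraries. The members held 1.39% and 1.41% of the signal in the Sin3B KO libraries and 1.58% and 1.33% in the WT libraries, with a median of 413 to 451 reads per member. Sin3b itself was at 755 and 647 in the KO libraries and at 1522 and 1825 in the WT libraries (log2 fold change -1.25, SE 0.22). All 9 markers of HSC and of the sort gate were listed, among them Cd34 messenger at 5623 and 5133 in the Sin3B KO and 6508 and 4945 in the WT libraries, although the cells were sorted without the surface protein. The 10 neutrophil and monocyte markers were all listed too, and summed to 52787.5 and 24178 in the Sin3B KO and to 76837 and 14672 in the WT libraries, so library 1 was the higher one in both genotypes. Of 8 erythroid markers 6 were listed, with Slc4a1 at 0 in WT library 2, of 8 B-lineage markers 5, and of 6 T and NK markers 2. The listed erythroid markers summed to 7353 and 2913 in the Sin3B KO and to 4873 and 1887 in the WT libraries, and the listed B-lineage markers to 3968 and 1627 in the KO and to 3363 and 1489.6 in the WT libraries.

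Numbered Zfp genes were weakly expressed as a class. Their median level over the 4 libraries was 421, against 709 for all genes tested, and ranged from 120.4 to 7529. When all genes were divided into 4 equal groups by level, from the lowest to the highest, these held 100, 78, 53 and 21 members. The members also lay below all genes per length. Per kilobase of exon the members had a median of 94.9 and all genes 154, while the median exon length was 4743 bases for the members and 4657 for all genes. On the same per kilobase scale the KRAB members had a median of 90.3 and the members without KRAB 113.

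The most abundant member was Zfp207 (BuGZ), which escorts the checkpoint protein Bub3 to kinetochores in mitosis. It had 8095 and 7758 in the Sin3B KO libraries and 8336 and 5929.5 in the WT libraries. The KO values lay between the WT values, and its log2 fold change was 0.17 (SE 0.21). Zfp266, a KRAB member, followed with 5318 and 6364 in the KO and 4799 and 4185 in the WT libraries (log2 fold change 0.38, SE 0.19). Both KO values were higher, by less than the test requires (limma, Benjamini-Hochberg adjusted p = 0.552). Zfp706, a small protein with a role in the exit of mouse embryonic stem cells from self-renewal, had 5087 and 4544 in the KO and 4344 and 3634 in the WT libraries. Zfp263, a DNA-binding protein with a SCAN domain, had 4179.9 and 4456 in the KO and 5017 and 3892 in the WT libraries. Zfp868, another KRAB member, had 3972 and 4629 in the KO and 4605 and 3182 in the WT libraries. Zfp706 did not overlap between genotypes, while Zfp263 and Zfp868 did. Per kilobase of exon, Zfp868 led with 1416, ahead of Zfp207 with 1131, the KRAB member Zfp869 with 1079, Zfp263 with 970.2, Zfp706 with 884 and Zfp422 with 830.4.

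**Figure D1:**
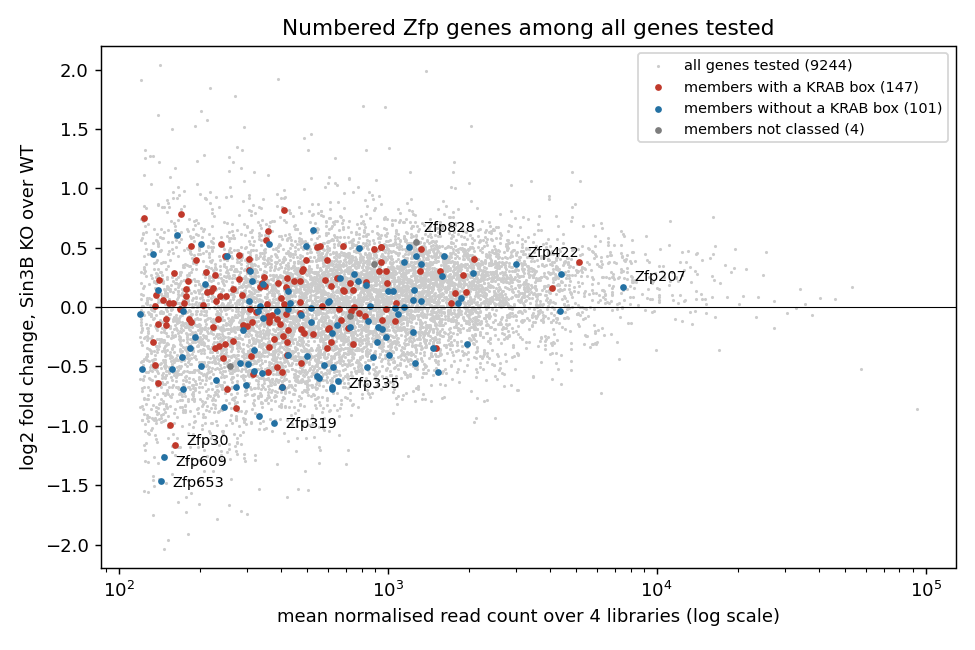
Log2 fold change of Sin3B KO over WT (vertical axis) against the mean normalised read count over the 4 libraries (horizontal axis, log scale) for the 9244 genes tested (grey) and the 252 members, coloured by the presence of a KRAB box. The members crowd towards the left, with a median level of 421 against 709 for all genes, and 3 members lie beyond 1 in size, all below 0.

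No member passed the test between the genotypes, nor did any of the 9244 genes (0.0%; limma, Benjamini-Hochberg adjusted p under 0.05). The smallest adjusted p was 0.548. Some genes, none of them members, passed with the replicate number as a block, as given further below. At an unadjusted p under 0.05, 3 members were higher in Sin3B KO cells, against 4.97% of all genes, and 7 were lower, against 3.95% of all genes. These are 1.19% and 2.78% of the members, and the 10 together are 3.97%, against 8.91% of all genes in either direction. In the authors' deposited table, too, 0 members had an adjusted p under 0.05 (0.316% of its genes did). There the smallest was 0.300 for Zfp653, and at an unadjusted p under 0.05 the authors' deposited table has 3 members higher, against 5.43% of its genes, and 8 lower, against 4.07%.

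With all 4 libraries, as many members lay above as below no difference. Of 252 members, 126 had a log2 fold change above 0 and 126 below, with a median of 0.00 and quartiles of -0.29 and 0.22; under 3 other scalings of the libraries 138, 143 and 151 were below 0. The split depends on the WT libraries, since 102 members were below 0 without WT library 1 (median 0.12) and 161 without WT library 2 (median -0.11). Over all genes the median was 0.03, the quartiles were -0.26 and 0.27, and 53.4% were above 0. Within 0.5 of no change lay 201 members, and beyond 1 lay Zfp653, Zfp609 and Zfp30. The median standard error of a member was 0.32, and the median half-width of its 95% interval was 0.72, a 1.64-fold difference. This interval is not adjusted for the number of genes. In bulk samples, fewer cells of a type and less RNA per cell cannot be told apart.

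Both Sin3B KO values lay above both WT values in 35 members (13.9%), against 24.7% of all genes, and below both in 46 (18.3%), against 19.4% of all genes. The counts were then split by the KRAB box. Among the 101 members without a KRAB match, both KO values were above both WT values in 17 (16.8%) and below in 29 (28.7%). Their median log2 fold change was -0.06 with quartiles of -0.47 and 0.17, and 60 of them were below 0. This median lay between -0.12 and -0.092 with any 1 library left out, at -0.14 under total scaling and at -0.0072 for members with a mean of at least 500. Among the 147 KRAB members the counts were 16 (10.9%) above and 17 (11.6%) below. Their median was 0.04 with quartiles of -0.16 and 0.24, and 64 were below 0; the median turned to -0.01 and -0.05 under trimmed-mean and total scaling. All 7 members that were lower at an unadjusted p under 0.05 (limma) lacked a KRAB match. They are 6.93% of the members without KRAB, and 0 KRAB members were lower at this level, against 3.95% of all genes. Higher at this level were 1 member without KRAB (0.99%) and 1 KRAB member (0.68%), against 4.97% of all genes. The difference between the KRAB classes was not tested. Exon length differed between them, with medians of 4334 bases for the KRAB members and 5897 for the others. Over all 9033 genes with a length, Spearman's rho between exon length and log2 fold change was -0.24. It was -0.20 over the members without KRAB (n = 101) and 0.01 over the KRAB members (n = 147). These are descriptions over genes that share the same 4 libraries. With the trend over exon length of all genes removed, the median was -0.10 for the members without KRAB and 0.00 for the KRAB members.

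Counted by fingers, the 19 members with fewer than 3 fingers had a median difference of -0.19 (log2, Sin3B KO over WT), with quartiles of -0.51 and 0.16. The median was 0.01 for the 83 members with 3 to 9, -0.01 for the 93 with 10 to 14 and 0.04 for the 53 with 15 or more. Of the 19, 17 are members without KRAB. Within the members without KRAB the median was -0.12 for these 17, -0.03 for the 47 with 3 to 9 fingers and -0.17 for the 37 with 10 or more. No difference by fingers was tested.

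Zfp319 had the smallest p-value of all members. It had 320.1 and 199.8 in the Sin3B KO libraries and 488 and 508 in the WT libraries. The WT values were close together and both above the KO values, for a 1.92-fold lower mean in the KO (log2 fold change -0.98, SE 0.32; limma adjusted p = 0.548). Zfp653 had 66.3 and 81.2 in the KO and 152 and 276 in the WT libraries. It had the largest fold of all members (log2 fold change -1.47, SE 0.55), but it is also among the weakest. It shares 20.5% of its 50-base words with the overlapping gene model Gm49318, so its reads may be split between the 2 models. Zfp609, a partner of the cohesin loader Nipbl in mouse cortical neurons, had 58.6 and 122 in the KO and 197 and 213 in the WT libraries (log2 fold change -1.26, SE 0.54). Zfp30, a KRAB member outside the rule for named genes and added because it is 1 of the 3 beyond 1, had 70.2 and 129 in the KO and 157 and 292 in the WT libraries.

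Zfp335 is a subunit of an H3K4 methyltransferase complex and is needed for the late maturation of mouse T cells. It had 536 and 488 in the KO and 698 and 889 in the WT libraries (log2 fold change -0.62, SE 0.25). Of its exon bases, 28.3% also lie in exons of Pcif1 on the opposite strand, and whether reads were counted by strand is not given in the sources used here. Zfp236, with 30 fingers, had 293 and 331 in the KO and 440.1 and 561 in the WT libraries. Zfp219, a partner of Sox9 in cartilage, had 202 and 152 in the KO and 341 and 289 in the WT libraries, and 12.7% of its exon bases lie in Tmem253 on the opposite strand. Both genes had WT values above the KO values (log2 fold changes -0.67, SE 0.28, and -0.84, SE 0.36). Zfp704 had 1017 and 1097 in the KO and 1547 and 1383 in the WT libraries (log2 fold change -0.47, SE 0.20), and 16.6% of its exon bases lie in a gene model on the opposite strand. Zfp395 had 564 and 385 in the KO and 613 and 926 in the WT libraries (log2 fold change -0.69, SE 0.30). These 8 named members (Zfp30 aside) were picked by p among members whose groups do not overlap, so that they do not overlap is no result.

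On the upper side, 7 of the 8 named members had log2 fold changes between 0.36 and 0.54. Zfp828 (Champ1), a kinetochore protein that keeps chromosomes aligned in mitosis, had 1434 and 1592 in the Sin3B KO and 1131 and 948 in the WT libraries (log2 fold change 0.54, SE 0.21; limma adjusted p = 0.548). Zfp830 (Omcg1), a splicing-related protein that adult mouse HSC depend on, had 1496 and 1322 in the KO and 992 and 983 in the WT libraries (log2 fold change 0.51, SE 0.21). Zfp110 (Nrif1), a partner of the neurotrophin receptor p75, had 1674 and 1424 in the KO and 1181 and 1027 in the WT libraries (log2 fold change 0.49, SE 0.21). These 3 members are the ones with an unadjusted p under 0.05 on this side. Zfp472 had 829 and 781 in the KO and 559 and 568 in the WT libraries, and Zfp180 had 853 and 985 in the KO and 604 and 699 in the WT libraries. Zfp961 had 1275 and 942 in the KO and 719 and 828 in the WT libraries. The log2 fold changes of these 3 were 0.51 (SE 0.23), 0.50 (SE 0.23) and 0.51 (SE 0.24). Zfp422 (Krox-26), known from tooth development, had 3252 and 3523 in the KO and 2598 and 2668 in the WT libraries (log2 fold change 0.36, SE 0.18). Zfp870 had 516 and 499 in the KO and 440.1 and 187 in the WT libraries. Its WT values differ 2.35-fold from each other, and its log2 fold change of 0.82 (SE 0.40) is 0.20 without WT library 2.

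**Figure D2:**
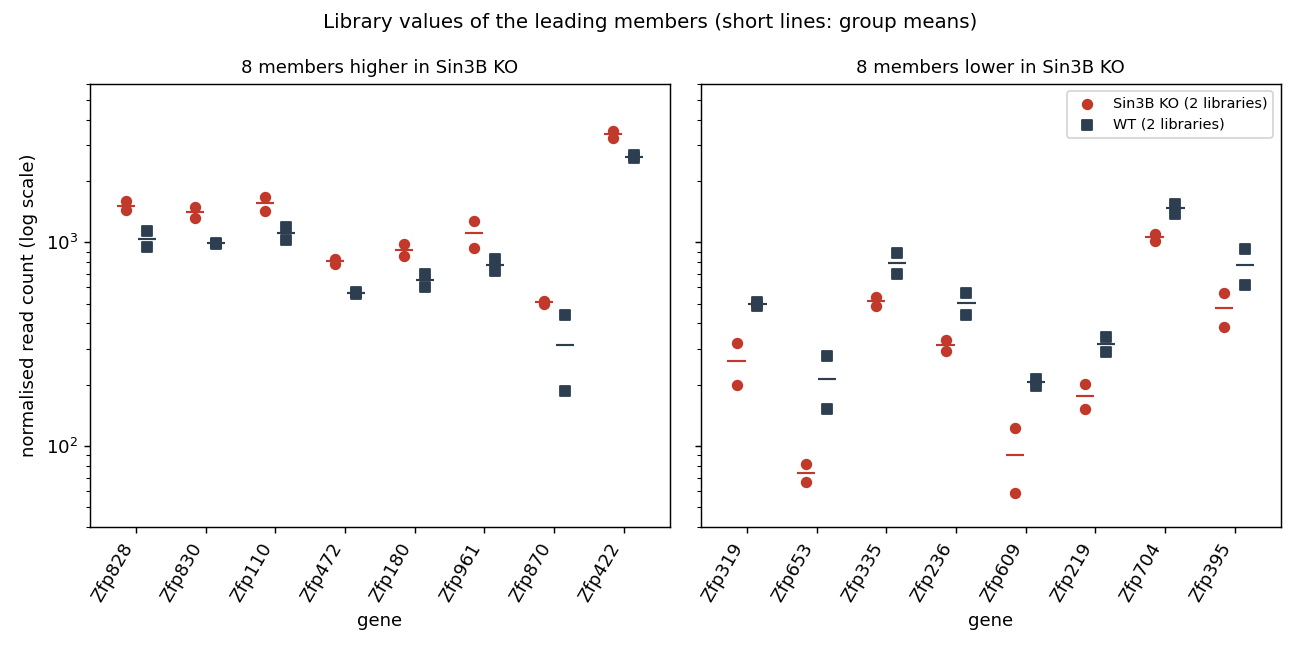
Normalised read count (log scale) in each library for the 8 members per direction with the smallest p-value among those whose genotypes do not overlap; circles are Sin3B KO, squares WT, short lines group means. Zfp319 and Zfp704 have WT values close together above the KO values, whereas for Zfp870 WT library 2, at 187, lies far below WT library 1, at 440.1.

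Regulators of blood and stem cells among the members lay on both sides. Of 12 such genes on the list, 9 had values, 4 above 0 and 5 below, with a median of -0.35. Zfp521 (Evi3), a regulator of HSC and early B cells, had 955 and 824 in the Sin3B KO and 811 and 746 in the WT libraries. Zfp410, which drives Chd4 transcription and so the silencing of fetal globin genes in human erythroid cells, had 1780.0 and 1684 in the KO and 1407 and 1489 in the WT libraries. Both were a little higher in the KO libraries, with log2 fold changes of 0.19 (SE 0.22) and 0.26 (SE 0.19). Chd4 itself had 3281 and 3780.2 in the KO and 4783 and 5008 in the WT libraries. Zfp318, needed for IgD messenger in mature B cells, had 345 and 543 in the KO and 581 and 723 in the WT libraries. Zfp281, a pluripotency factor, had 434 and 521 in the KO and 559 and 797 in the WT libraries. Zfp217, a partner of Lsd1 and CoREST, had 404 and 457 in the KO and 623 and 528 in the WT libraries. In these 3 genes, and in Zfp467 at 158 and 166 in the KO against 222 and 191 in the WT libraries, both KO values were lower, with log2 fold changes of -0.58, -0.49, -0.42 and -0.35. Counting Zfp335, described above, both KO values lay below both WT values in 5 of the 9 (55.6%), against 19.4% of all genes. Both lay above in 2 (22.2%), against 24.7% of all genes. Zfp148 (ZBP-89) and Zfp143, a general promoter-binding activator, overlapped between genotypes, with log2 fold changes of 0.03 and 0.05 that turned below 0 under total scaling.

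The silencers of imprinted genes and retroelements were close to no difference or uneven between libraries. Of 8 listed, 6 had values, 2 above 0 and 4 below, with a median of -0.12. Zfp57, which guards imprinted methylation, had 854 and 1189.6 in the Sin3B KO and 500.5 and 1024 in the WT libraries. Zfp445, which shares that task, had 2154 and 2528 in the KO and 2365 and 1309.5 in the WT libraries. WT library 1 over WT library 2 was 0.489-fold for Zfp57 and 1.81-fold for Zfp445, so the pair ran in opposite directions between the WT libraries. Their log2 fold changes were 0.49 (SE 0.35) and 0.41 (SE 0.28), and turn to -0.022 and -0.019 when the lower WT library is left out. Zfp809, which silences murine leukaemia proviruses, had 932 and 908 in the KO and 1044 and 942 in the WT libraries (log2 fold change -0.11, SE 0.21). Zfp568, a repressor of a placental Igf2 transcript, had 141 and 216 in the KO and 229 and 159 in the WT libraries. Zfp932 and Zfp708, which bind retroelement families, had log2 fold changes of -0.16 and -0.12, and share 45.2% and 100% of their 50-base words with other gene models, so their counts are uncertain.

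Of 7 listed partners of chromatin complexes, 6 had values, 1 above 0 and 5 below. Zfp687 had 607 and 779 in the Sin3B KO and 1038 and 923 in the WT libraries (log2 fold change -0.51, SE 0.24). Zfp532 had 151 and 327 in the KO and 349 and 507 in the WT libraries (log2 fold change -0.92, SE 0.42; -0.36 without KO library 1 and -1.47 without KO library 2), with 28.7% of its exon bases in a gene model on the opposite strand. Their relative Zfp592, which joins them in a complex around Zmynd8, had 774 and 965 in the KO and 714 and 1345 in the WT libraries, where the groups overlap. Zfp644, which works with the methyltransferase G9a, had 1110.1 and 1008 in the KO and 1359 and 892 in the WT libraries. The list also holds Zfp653 and Zfp828, and its median was -0.34.

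Among the 14 listed members with tasks in RNA, the ribosome or ubiquitin, 11 had values, 5 above 0 and 6 below (median -0.07). Zfp91, a ubiquitin ligase, had 803 and 989 in the Sin3B KO and 942 and 1199.8 in the WT libraries. Zfp106, an RNA-binding protein, had 1848 and 1975 in the KO and 1589 and 2057 in the WT libraries, with 26.1% of its exon bases in a gene model on the opposite strand. The groups of both overlap. Zfp598, the ligase that senses collided ribosomes, had 235 and 295 in the KO and 265 and 572 in the WT libraries. Zfp451, a SUMO ligase, had 549 and 686 in the KO and 639.6 and 239 in the WT libraries. In these 2 genes WT library 2 stands apart, on the high side for Zfp598 and on the low side for Zfp451. Zfp622, a 60S subunit maturation factor, had 102 and 92.7 in the KO and 103 and 189.9 in the WT libraries. Zfp259 (Zpr1), Zfp326 and Zfp346 had log2 fold changes of -0.08, -0.07 and -0.17 with overlapping groups.

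The proteins through which KRAB boxes act were described gene by gene, and no test was run on them as a list. Of 25 listed partners, 22 had values, 8 above 0 and 14 below, with a median of -0.10 and 0 passing (limma). At an unadjusted p under 0.05, 0 were higher, against 4.97% of all genes, and 4 (18.2%) were lower, against 3.95% of all genes. The partners are also longer and more abundant, with a median exon length of 7115 bases against 4657 for all genes. Their median level was 1432, against 709. The part of length and level in these shares was not tested. Trim28, the direct KRAB partner, had 1357 and 1676 in the Sin3B KO and 1248 and 3593 in the WT libraries. The spread between its WT values exceeded any difference between genotypes (log2 fold change -0.49, SE 0.42). Chd3, a NuRD helicase that Trim28 recruits, had 432 and 441 in the KO and 737 and 764 in the WT libraries (log2 fold change -0.78, SE 0.24; adjusted p = 0.548). Ehmt2 (G9a), an H3K9 methyltransferase, had 568 and 697 in the KO and 882 and 1219.5 in the WT libraries. Chd3 and Ehmt2, with Rif1 and Chd4, are the 4 lower ones. On the other side, Pphln1, a HUSH complex subunit, had 1645 and 1619 in the KO and 1519 and 811 in the WT libraries, and Dnmt1, the maintenance DNA methyltransferase, had 5536 and 4715 in the KO and 3456 and 4438 in the WT libraries.

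The KRAB members were uneven between the WT libraries. The following values were described after they had been seen, and no test was run on them. In 106 of 147 KRAB members (72.1%) WT library 1 was above WT library 2, against 45.4% of all genes, and the median log2 difference was 0.31 for the KRAB members and -0.05 for all genes. Among the members without KRAB it was -0.04, with WT library 1 higher in 50 of 101. Between the Sin3B KO libraries, library 1 was the higher in 74 of 147 KRAB members, against 49.7% of all genes, with a median of 0.00. Measured from each gene's mean over the 4 libraries, the KRAB members had median deviations of 0.02 and 0.03 in the KO libraries and of 0.15 and -0.20 in the WT libraries. The KO libraries lie between the WT libraries, so the KRAB median of 0.04 between genotypes depends on which WT library is used. It is -0.12 without WT library 2 and 0.21 without WT library 1.

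**Figure D3:**
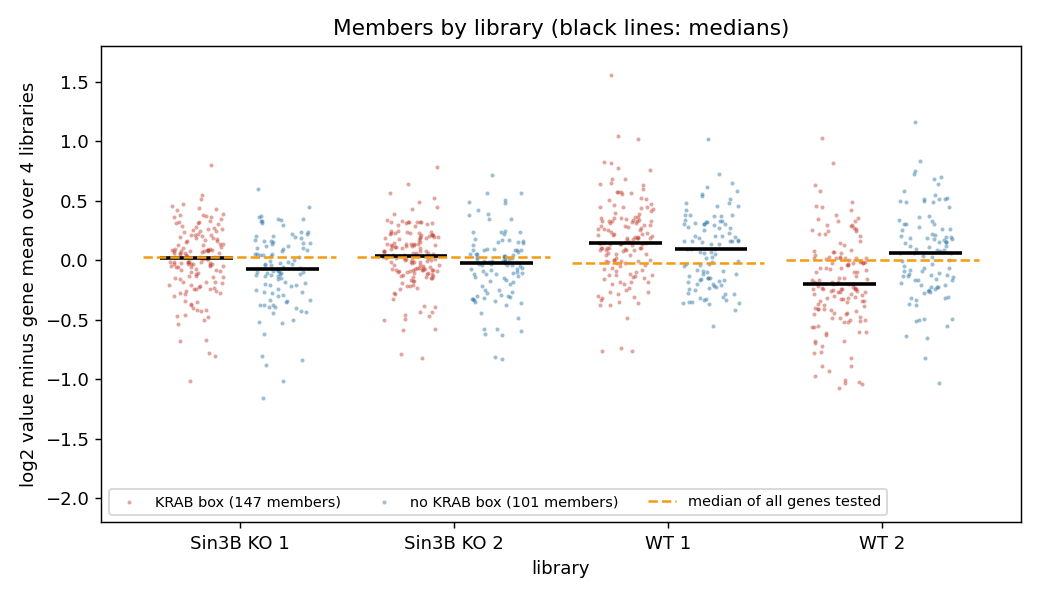
Log2 value minus the gene's mean over the 4 libraries (vertical axis) for each KRAB member and each member without KRAB (points) in each library; black lines are class medians and dashed lines the median of all genes tested. The KRAB median is 0.15 in WT library 1 and -0.20 in WT library 2, and 0.02 and 0.03 in the Sin3B KO libraries.

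More than 2-fold differences between the WT libraries were found in 28 members (11.1%), against 6.82% of all genes, and 24 of the 28 were higher in WT library 1. Between the KO libraries there were 10 (3.97%), against 4.62% of all genes. The KRAB member with the widest gap, Zfp442, had 65.4 and 119 in the Sin3B KO libraries and 310.1 and 49.5 in the WT libraries. Zfp808 had 193 and 174 in the KO and 371 and 88.0 in the WT libraries. Both share much of their sequence with other models (32.3% and 46.4% of 50-base words), so their counts are less certain than those of the rest. Zfp943, which shares less, had 295 and 346 in the KO and 674 and 166 in the WT libraries. Zfp229 had 206 and 206 in the KO and 333 and 106 in the WT libraries, and Zfp563 had 273 and 263 in the KO and 344 and 115 in the WT libraries. In these 3 genes the KO values were close together and lay between the WT values.

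The gap was widest for the KRAB genes of chromosomes 17 and 13. On chromosome 17, 25 of 28 KRAB members were higher in WT library 1 (median log2 difference 0.79), and on chromosome 13 17 of 19 (0.53). On chromosome 7 these were 25 of 42 (0.09) and elsewhere 39 of 58 (0.22). The genes of chromosome 17 that are not members had a median of -0.14, and 37.8% of them were higher in WT library 1. The 5 members without KRAB on chromosome 17 had a median of -0.59 and none was higher. On chromosome 13 the genes that are not members had a median of 0.09. On chromosome 7 the genes that are not members had a median of -0.15, and 35.6% of them were higher in WT library 1. The 23 members without KRAB on chromosome 7 had a median of -0.10. Of the 4 stretches of 3 or more adjacent members on chromosome 17, 3 were higher in WT library 1 throughout. The 6 adjacent genes Zfp51, Zfp52, Zfp53, Zfp54, Zfp677 and Zfp948 on chromosome 17 were all higher in WT library 1 (median 0.93), as were Zfp229, Zfp760 and Zfp820 (median 1.25) and Zfp758, Zfp944 and Zfp946 (median 0.68). KRAB members with no member beside them showed it as well (47 of 62, median 0.38, against 59 of 85 and 0.31 for those in stretches).

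Trim28 ran the other way between the WT libraries, as given above. As sums, the listed neutrophil and monocyte, erythroid and B-lineage markers were higher in library 1 in both genotypes. Single markers ran the other way, with Ltf at 793 and 886 in the Sin3B KO libraries. In the WT libraries Gata1 had 1004 and 1063, and Epor 389 and 397. The listed T and NK markers summed to 3849 and 3317 in the KO and to 2951 and 3129 in the WT libraries. The KRAB median was uneven only between the WT libraries, and the part of the marker genes in the gap was not tested. Spearman's rho between the difference of the KO libraries and that of the WT libraries was 0.06 over the members and 0.32 over all genes, a description over genes measured in the same libraries.

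**Figure D4:**
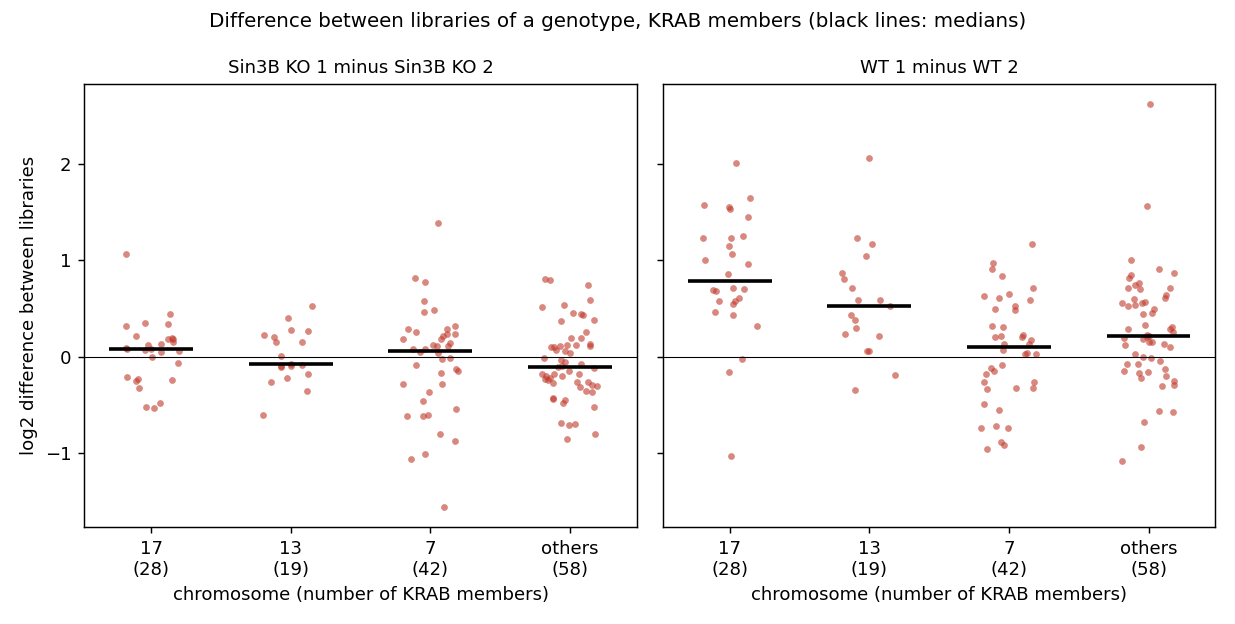
Log2 difference between the 2 libraries of a genotype (vertical axis) for the KRAB members of chromosomes 17, 13 and 7 and of the others; left, Sin3B KO library 1 minus 2; right, WT library 1 minus 2; points are genes, black lines medians. The WT medians are 0.79, 0.53, 0.09 and 0.22 in that order, while the KO medians are 0.08, -0.07, 0.06 and -0.10.

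Promoter sequences were found in RefSeq for 204 members, from 250 bases before to 50 after a start. They held a median of 14 CG dinucleotides, with 11 for KRAB members and 20 for the others, against 7 for all 27025 genes with a promoter there. This set is wider than the 9244 genes tested, and neither medians nor shares were taken over the tested genes alone. Motifs were searched on both strands, and a match is only a match of letters. The binding site of Zfp143 itself, whose letters are the capitals in the Zfp180 promoter below, was in 8 members (3.92%), against 0.311% of those 27025 genes. The YY1 core (GCCATNTT), YY1 being another zinc finger factor, was in 34 (16.7%), against 6.96%. The E box CACGTG, bound by the Myc and Mxd proteins of which the Mxd proteins recruit Sin3, was in 19 (9.31%), against 8.09%. The median difference between genotypes (log2) was 0.25 for the 8 members with the Zfp143 site, of which 2 were below 0, -0.04 for the 34 with the YY1 core, of which 19 were below 0, and -0.10 for the 19 with an E box, of which 12 were below 0. The 250 bases before the start of Zfp319, the lower member with the smallest p, and of Zfp180 and Zfp472, 2 of the higher ones, show each case on GRCm38.p6. Capitals mark the Zfp143 site in Zfp180, on the other strand, and the YY1 core in Zfp472. None of the 3 motifs is in this stretch of Zfp319. They lie at chr8:95331812-95332061 on the minus strand, chr7:24081647-24081896 on the plus strand and chr17:32965581-32965830 on the plus strand.
Zfp319: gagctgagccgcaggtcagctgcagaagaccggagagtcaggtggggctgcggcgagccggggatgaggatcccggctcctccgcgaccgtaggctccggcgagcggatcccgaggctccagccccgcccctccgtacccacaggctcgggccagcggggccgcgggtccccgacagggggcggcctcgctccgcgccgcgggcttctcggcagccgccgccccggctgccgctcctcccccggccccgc
Zfp180: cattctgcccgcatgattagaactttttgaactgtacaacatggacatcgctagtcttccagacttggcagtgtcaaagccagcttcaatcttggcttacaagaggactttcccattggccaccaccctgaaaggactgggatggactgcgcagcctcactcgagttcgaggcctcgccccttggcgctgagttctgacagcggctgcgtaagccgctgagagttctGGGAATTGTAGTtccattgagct
Zfp472: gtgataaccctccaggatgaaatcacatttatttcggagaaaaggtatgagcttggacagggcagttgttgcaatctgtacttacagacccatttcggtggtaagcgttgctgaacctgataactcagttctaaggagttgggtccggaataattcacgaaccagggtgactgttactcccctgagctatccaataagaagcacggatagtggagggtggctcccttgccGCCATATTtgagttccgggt
On chromosome 17, 2 pairs of KRAB members start head to head, with 94 bases between the starts of Zfp942 and Zfp943 and 62 between those of Zfp944 and Zfp758. The bases between the starts are shown because all 4 genes belong to the group that differs between the WT libraries, and because the shorter stretch is found whole inside the longer one. They lie at chr17:21962465-21962558 and chr17:22361401-22361462, are given on the plus strand, and capitals mark the E box that both hold.
Zfp942-Zfp943: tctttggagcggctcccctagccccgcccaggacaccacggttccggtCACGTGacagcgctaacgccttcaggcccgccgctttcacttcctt
Zfp944-Zfp758: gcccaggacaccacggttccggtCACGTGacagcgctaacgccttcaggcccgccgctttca
Zfp942 had 499 and 722 in the Sin3B KO and 724 and 246 in the WT libraries, where its neighbour Zfp943 had the values given above. Zfp944, which shares 10.4% of its 50-base words with other genes, most often Zfp942, had 327 and 286 in the KO and 620.2 and 386 in the WT libraries. Zfp758 had 341 and 313 in the KO and 580.3 and 212 in the WT libraries. All 4 genes were higher in WT library 1 than in WT library 2, by 1.61-fold to 4.06-fold. Their log2 fold changes between genotypes were 0.51 (SE 0.47) for Zfp942, -0.07 (SE 0.57) for Zfp943, -0.68 (SE 0.32) for Zfp944 and -0.10 (SE 0.45) for Zfp758, with standard errors above the median of the members.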

How the data were processed

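RNA sequencing of 2 Sin3B KO and 2 WT libraries was used. The submitters' processing notes name the tools Bowtie and DESeq, without versions, and mm9 as the build. How reads were counted, on which annotation and whether by strand is not given in the sources used here. Deposited library columns hold a signal, namely the authors' read count scaled by 1 factor for each library. The values show this, since each fell within 0.01 of a step from a whole number of steps (a step being 0.961 and 0.892 for the Sin3B KO libraries, 1.14 and 0.989 for the WT libraries). Per the file headers, the authors also deposited their own comparison as a log2 fold change, its error, a score, and p-values with and without adjustment.

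Of 9796 genes, 552 have no library values and were left out; no member is among them. Differences were tested with limma 3.58.1 in R 4.3.3 on log2(value + 1) with a trended prior, two-sided, with Benjamini-Hochberg adjustment over 9244 genes and a threshold of 0.05. A filter asking for 1 or more in 2 libraries removed none. Fold changes are on this scale, which understates the change of weak genes. The spread of each gene was drawn towards the trend over all genes, with 6.616 prior degrees of freedom against 2 residual ones. The test was checked on simulated data.

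Members were matched to GENCODE vM21 (GRCm38) by the Ensembl identifiers in the file (249 of 252). Fingers were counted in the translated coding sequences as C-x(2,4)-C-x(12)-H-x(3,5)-H. The KRAB profile was built with HMMER 3.4 from 55 sequences of 37 residues and applied at an E-value of 1e-05. The design named a protein table that was not used here. Promoters came from RefSeq (GRCm38.p6). No other coordinates are given, since the authors' build is another.

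Named members are up to 8 per direction with the smallest unadjusted p among those whose genotypes do not overlap, the 6 most abundant, and the measured members of 4 role lists; with them stand Sin3b, Trim28 and up to 2 KRAB partners per direction. Members and lists were chosen with earlier results of these data known. Lists were described without a test of their own. Libraries are numbered 1 and 2 as in their titles; the descriptions number them 1 and 3. The alternatives tried are 3 other scalings, pseudocounts of 0.1 and 5, a mean of at least 500, the replicate number as a block, each library left out, and, chosen after seeing the data, an exon length trend removed, genes with little shared sequence, and a looser KRAB threshold.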

Additional observations from a re-analysis of the deposited data

How the results depend on the processing

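No member passed under any alternative run (0 throughout). Over all genes, 27 passed with the replicate block, 0 to 1 with a library left out, and 0 otherwise; 1 passed without Sin3B KO library 2 and 1 without WT library 2. The block rests on the numbers of the titles, and the labels do not say what same-numbered libraries share. Their deviations correlated at 0.465 over all genes and 0.066 over the members, and a shared effect was not tested. With the block, Sin3b passed (limma adjusted p = 0.0282). The median of the members lay between -0.11 (without WT library 2) and 0.12 (without WT library 1), and that of the KRAB members between -0.12 and 0.21, with the same 2 libraries at the ends. Members below 0 numbered 102 to 161 with a library left out, and 47 of the 107 members with a mean of at least 500. The median of the members without KRAB was -0.094, -0.11 and -0.14 under median-ratio, trimmed-mean and total scaling, -0.12 to -0.092 with a library left out, -0.10 with the exon length trend removed and -0.0072 with a mean of at least 500, so it kept its sign. The median of all genes was -0.00, -0.02 and -0.05 under the 3 scalings and 0.11 with a mean of at least 500. For 53 named genes, 594 of 622 alternative values kept direction and side of the threshold and 27 turned direction. Under the same scalings Zfp148 turned to -0.0049, -0.018 and -0.055, and under total scaling Zfp143 turned to -0.032 and Zfp106 to -0.0055. The others turned with a library left out; their log2 fold changes then ranged from -0.22 to 0.15 for Zfp263, -0.43 to 0.17 for Zfp568, -0.10 to 0.17 for Zfp148, -0.064 to 0.17 for Zfp143, -0.36 to 0.25 for Zfp644, -0.48 to 0.33 for Zfp259, -0.022 to 1.009 for Zfp57, -0.42 to 0.17 for Zfp708, -0.11 to 0.27 for Zfp106, -0.18 to 0.050 for Zfp326, -0.073 to 0.42 for Zfp207, -0.10 to 0.43 for Zfp868, -0.019 to 0.83 for Zfp445, -0.64 to 0.28 for Zfp592, -0.060 to 1.35 for Zfp451 and -1.25 to 0.27 for Trim28. The cause was not tested. A library left alone in its genotype was assumed to vary like the others. The planned count models edgeR and DESeq2 were not run. The deposited columns hold scaled values, and whole steps were taken as reads only to describe depth. With 2 libraries a genotype and a median of 413 to 451 reads per member, the 95% interval of a member reached 0.72 to either side at the median.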

Other observations

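The 17 lettered genes of the same naming series, such as Zfp119a and Zfp955b, were also uneven between the WT libraries: WT library 1 was above WT library 2 in 15 of 17 (88.2%), with a median log2 difference of 0.51, and Sin3B KO library 1 was above library 2 in 7 of 17. Zfp119a had 536 and 407 in the Sin3B KO libraries and 662 and 265 in the WT libraries. Their median log2 fold change between the genotypes was -0.06, with 8 above 0 and 9 below, and 0 passed (limma; 2, or 11.8%, were lower at an unadjusted p under 0.05, against 3.95% of all genes). These 2 are Zfp36l1 and Zfp36l2, which with Zfp36 form the family of CCCH finger proteins that bind AU-rich messengers and hasten their decay. Zfp36l1 had 316 and 363 in the Sin3B KO and 654 and 458 in the WT libraries (log2 fold change -0.69, SE 0.29; limma adjusted p = 0.548). Zfp36l2 had 1863 and 2621 in the KO and 3341 and 3642 in the WT libraries (log2 fold change -0.66, SE 0.22). Each KO value lay below each WT value in 3 of the 17 lettered genes (17.6%), these 2 among them, against 19.4% of all genes. Each lay above in 1 (5.88%), against 24.7% of all genes. Zfp36 itself had 2787 and 6146 in the KO and 2709 and 7157 in the WT libraries (log2 fold change -0.09, SE 0.47), so library 2 was the higher one in both genotypes.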
